A study of Mus musculus with 6 samples.

Results

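The 32 genes described here encode chaperones, the proteins that help other proteins fold, and some of their close partners. They were chosen by name: 16 act in the cytosol or mitochondria and belong to the heat shock group, and 16 act in the endoplasmic reticulum (ER) or in its stress response. All 32 were found among the 15295 genes of the deposited count table. RNA was sequenced from 6 tumours of NA13, per the labels a bladder cancer line of the mouse, and C57BL/6 is named as the strain. In 3 tumours the cells carried a scrambled shRNA (control), in 3 they are labelled as carrying an shRNA against Ddr2, a collagen-binding receptor tyrosine kinase, and all 6 received IgG. Whether each tumour grew in its own mouse, and whether the cells were 1 clone, the labels leave unsaid. A p-value therefore reflects how much these samples vary, and that variation may be technical. Values of single libraries are listed in the order of the replicate numbers.

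Heat shock genes of the cytosol and mitochondria are driven largely by the transcription factor HSF1, which is released and binds heat shock elements when unfolded proteins accumulate. HSP70 proteins hold and release unfolded chains, DNAJ proteins bring chains to them, HSP90 proteins complete the folding of kinases and receptors, and small heat shock proteins keep damaged chains soluble. In the ER, a separate unfolded protein response acts through the sensors ATF6, IRE1 and PERK, and the factors ATF6 and XBP1 act on ER stress response elements in front of genes for ER chaperones. Tumour cells depend on both systems, and secretory cells carry large amounts of the ER set.

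Whole tumours were sequenced, so every library holds a mixture of tumour and host RNA, and fewer cells of a type cannot be told apart from less RNA per cell. Library totals ranged from 15560571 to 19522985 counts. The unit CPM expresses a gene's count relative to its scaled library total. Ddr2 itself was at 6.42, 16.7 and 20.5 CPM in the 3 controls and at 4.84, 19.0 and 28.6 CPM in the shDdr2-labelled libraries. Its log2 fold change was 0.27 (SE 0.66), so the target gene did not stand lower in the shDdr2-labelled group, and groups are named only as labelled. This change ran from -0.28 without the library labelled shDdr2 3 to 0.71 without that labelled shDdr2 1. Host RNA is part of each library, so these values do not give the Ddr2 level of the tumour cells alone. The library labelled shDdr2 1 stood apart on the first principal component (-85.2, with the other 5 between -16.3 and 45.7), and control 1 on the second (-55.7, with the other 5 between -6.75 and 34.3). Of 12 epithelial and urothelial markers listed to check the labelled cell type, 11 were tested and 1 (Upk3a) is not in the table. The basal keratins Krt5 and Krt14 were at 4939 to 5954 CPM and 4083 to 5500.4 CPM over the 6 libraries, while the uroplakins Upk1b and Upk2, which mark superficial urothelium, were at 15.5 to 116 CPM and 2.09 to 4.19 CPM, and the urothelial factor Gata3 was at 102 to 152 CPM. The list had 4 genes lower without overlap in the libraries labelled shDdr2 (Epcam, Krt8, Krt18 and Pparg), against 2.11% of all genes. Of these 4, DESeq2 called Pparg (adjusted p = 0.0493), against 0.0393% of all genes called lower, and edgeR called none.

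Many promoters of each set carry an element not found in the other. These elements describe the sets by sequence and not by level. RefSeq windows of 300 bases (GRCm38.p6, 250 bases before a start and 50 from it on) matched 26 of the 32 genes, 12 heat shock and 14 ER genes. Hspa8, Hsp90aa1, Hsp90ab1, Cryab, Hyou1 and Manf had no entry. The heat shock element was searched as GAANNTTC or TTCNNGAA on both strands. It was found in 9 of 12 heat shock genes and 0 of 14 ER genes, against 17.0% of all 27025 genes with a window. The ER stress response element was searched on both strands as CCAAT and CCACG with 9 bases of any kind between them. It was found in 7 of 14 ER genes and 0 of 12 heat shock genes, against 0.137% of all genes. Its second form, ATTGG and CCACG with 1 base between them, was found in Dnajb11 and Herpud1 among the members and in 0.044% of all genes. Dnajb1, Hspa4 and Hspa4l had no heat shock element in their windows. Neither ER form was found in Pdia3, Pdia4, Dnajb9, Sdf2l1 and Xbp1. These counts are not over independent sequences, since the windows of Hspa1a and Hspa1b differ at 4 of 300 positions and those of Hspd1 and Hspe1 share 285 bases on opposite strands. Genes with several starts (31 windows for the 26 genes) count once. A match describes the letters in these windows and is not a measured binding site.

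The 250 bases before the start are printed 5′ to 3′ for 4 members, with the matched element in capitals. Hspa1b (chr17:34959239-34959488, minus strand) is the stress-inducible HSP70 gene with most counts, Hspe1 (chr1:55087898-55088147, plus strand) has 3 overlapping heat shock elements that also lie in front of Hspd1, and Hspa5 (chr2:34771840-34772089, plus strand) and Calr (chr8:84846932-84847181, minus strand) carry the ER element.
Hspa1b: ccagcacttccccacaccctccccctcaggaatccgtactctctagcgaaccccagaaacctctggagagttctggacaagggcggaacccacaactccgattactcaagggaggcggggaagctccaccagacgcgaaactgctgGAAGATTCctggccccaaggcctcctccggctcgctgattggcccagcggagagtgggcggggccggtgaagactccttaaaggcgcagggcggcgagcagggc
Hspe1: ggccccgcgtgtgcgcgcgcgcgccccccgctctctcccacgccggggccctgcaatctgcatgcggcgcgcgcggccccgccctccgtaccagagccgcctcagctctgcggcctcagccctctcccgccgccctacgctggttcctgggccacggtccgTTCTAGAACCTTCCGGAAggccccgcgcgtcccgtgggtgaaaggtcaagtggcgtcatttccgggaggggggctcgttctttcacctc
Hspa5: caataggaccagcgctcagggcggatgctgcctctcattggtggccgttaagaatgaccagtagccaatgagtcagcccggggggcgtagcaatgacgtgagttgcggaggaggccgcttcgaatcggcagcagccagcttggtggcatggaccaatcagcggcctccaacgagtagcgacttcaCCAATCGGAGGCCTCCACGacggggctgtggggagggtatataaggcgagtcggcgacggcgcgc
Calr: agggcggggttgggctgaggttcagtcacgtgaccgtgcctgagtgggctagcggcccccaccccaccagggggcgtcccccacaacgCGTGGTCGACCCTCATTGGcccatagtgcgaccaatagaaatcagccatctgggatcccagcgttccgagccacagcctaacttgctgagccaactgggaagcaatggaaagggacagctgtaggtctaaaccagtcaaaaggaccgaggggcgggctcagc

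The matches in the ER set are printed next to each other, each read in the direction of the element, with its fixed letters in capitals, to show that the spacer between them differs from gene to gene. Hsp90b1 has a pair of matches, and those of Calr and Creld2 and the second of Hsp90b1 lie on the strand opposite to the gene. Counted from the start, the first base of a match lies between position -212 (Hsp90b1) and position 8 (Dnajb11).
Hspa5: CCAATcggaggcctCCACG
Hsp90b1 first: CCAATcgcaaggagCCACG
Hsp90b1 second: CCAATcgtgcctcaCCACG
Calr: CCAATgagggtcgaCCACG
Canx: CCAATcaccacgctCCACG
Pdia6: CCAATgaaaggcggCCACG
Dnajc3: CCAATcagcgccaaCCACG
Creld2: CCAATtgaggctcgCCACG
Dnajb11: ATTGGcCCACG
Herpud1: ATTGGgCCACG

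Most chaperone genes of both sets had small fold changes between the control and the shDdr2-labelled tumours, and Cryab, a small heat shock gene, had the largest. All 32 members passed the filter on low counts. With edgeR's quasi-likelihood test and Benjamini-Hochberg adjustment over 14498 genes, 0 of 32 were called higher and 0 lower (lowest adjusted p = 1.00), and percent called over all genes was 0% in each direction. DESeq2 also called 0 members, against 0.223% of all genes higher and 0.0393% lower, and limma gave 0 calls among all genes, with voom weights as well as on the log2 values as deposited. At an unadjusted edgeR p under 0.05 there was 1 member (Cryab, higher), against 1.44% of all genes (0.993% higher and 0.448% lower). The groups did not overlap in 1 member, again Cryab, against 4.32% of all genes (2.21% higher and 2.11% lower). Fold changes are given as log2 of the level in the libraries labelled shDdr2 over control: 16 members were above 0 and 16 below, with a median of 0.0039, and over all genes 57.1% were above 0, with a median of 0.040. In 28 members the 95% interval lay within 1 log2 unit to either side of 0, and the exceptions were Hspe1, Cryab, Hspb8 and Sdf2l1. Within 0.58 log2 units lay the intervals of 10 members. The direction was less firm: in 23 members the sign of the change was turned by leaving out at least 1 of the 6 libraries, and in 9 it was not.

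**Figure D1:**
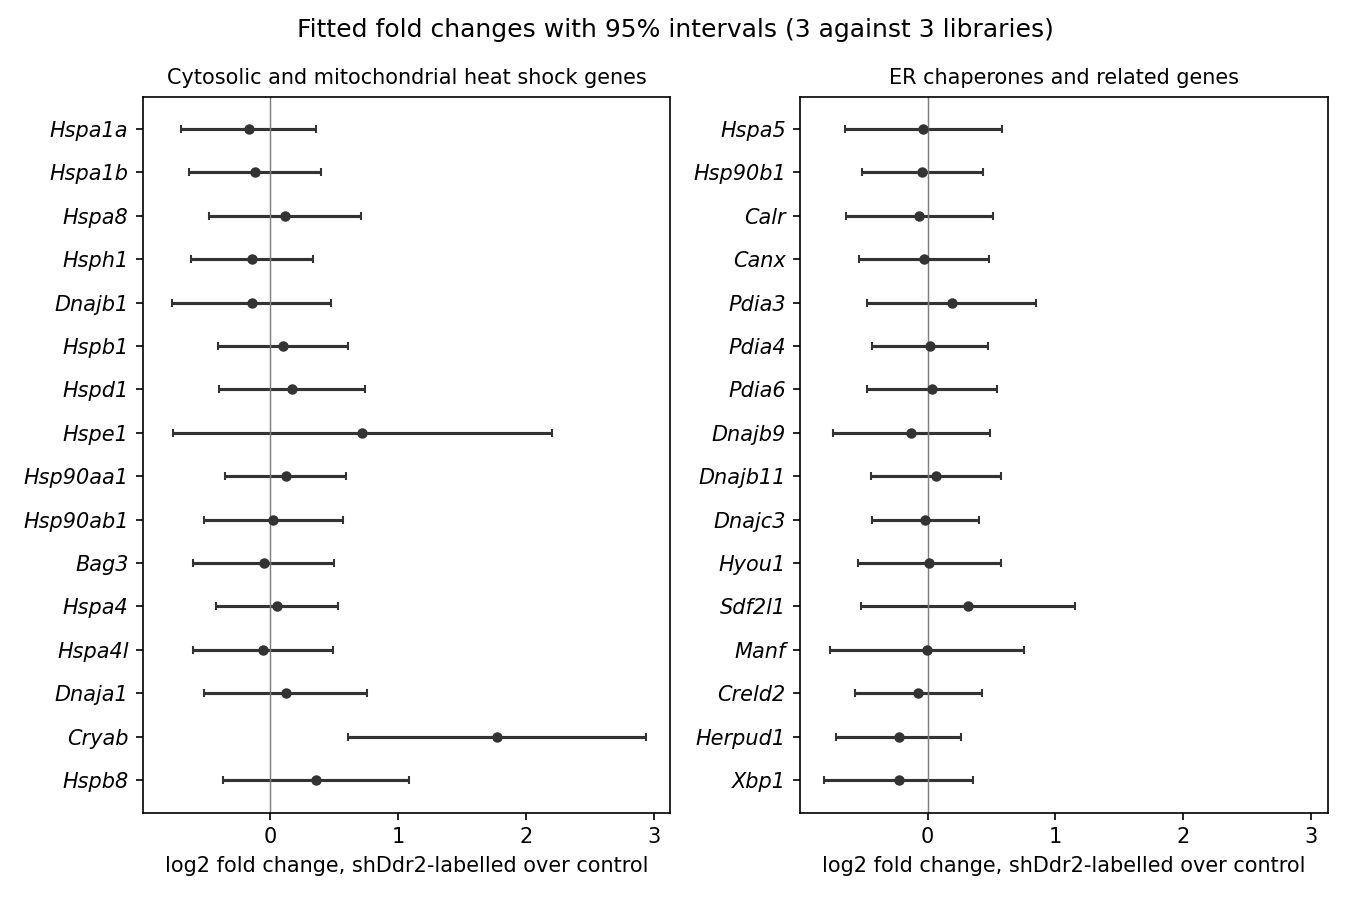
Fitted log2 fold change (x axis) of each member, shDdr2-labelled over control libraries, with 95% intervals from edgeR (3 against 3 libraries), heat shock genes on the left and ER genes on the right. Only the interval of Cryab (0.61 to 2.94) excludes 0, and this is before adjustment over all genes.

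The inducible HSP70 genes, which HSF1 switches on most strongly, had slightly lower mean values in the libraries labelled shDdr2, within the spread of the libraries. Hspa1b (chromosome 17, 34956436 to 34959238, minus strand) was at 479.6, 577 and 428 CPM in the 3 controls and at 406, 465 and 495 CPM in the shDdr2-labelled libraries, with a log2 fold change of -0.12 (SE 0.22). Its near-copy Hspa1a (chromosome 17, 34969190 to 34972156, minus strand) was at 30.96, 33.8 and 26.5 CPM in the 3 controls and at 21.7, 31.96 and 27.6 CPM in the shDdr2-labelled libraries, with a log2 fold change of -0.17 (SE 0.23). Both were highest in control 2 and lowest in the library labelled shDdr2 1, and the groups overlapped. Of the 150-base stretches of the Hspa1a transcript, 39.7% also occur in another annotated gene, closest Hspa1b, so the split of reads between them is uncertain. Hspa1b held 93.6% to 94.9% of their joint counts in every library, and their summed level was 511, 611 and 454 in the 3 controls and 427, 497 and 523 in the shDdr2-labelled libraries (CPM).

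The partners of HSP70 that respond to stress went the same way in sign, and none passed the test. Hsph1, an exchange factor that reloads HSP70, was at 357 ± 48.9 and 323 ± 22.7 CPM in control and shDdr2-labelled libraries (mean ± SD, n = 3 each), a log2 fold change of -0.14 (SE 0.21). Dnajb1, the DNAJ partner induced by heat, had -0.15 (SE 0.27), from 215 ± 35.6 and 195 ± 58.3 CPM. Bag3, an exchange factor that steers clients to autophagy, had -0.052 (SE 0.23), from 158 ± 12.8 and 152 ± 36.7 CPM. The 5 inducible genes Hspa1a, Hspa1b, Hsph1, Dnajb1 and Bag3 were thus all below 0, from -0.17 to -0.052, but the sign of Hspa1b, Dnajb1 and Bag3 turned when 1 library was left out. These 5 were grouped after their values had been seen.

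The HSP70 genes that cells keep on at all times, and the DNAJ partner Dnaja1, had fold changes close to 0 and intervals that include it. Hspa8, the constitutive cytosolic HSP70, was at 1134, 901 and 833 CPM in the 3 controls and at 1244, 1004 and 854 CPM in the shDdr2-labelled libraries, with a log2 fold change of 0.11 (SE 0.25). It was highest in the library labelled shDdr2 1 and lowest in control 3. Annotated pseudogenes and other genes share 55.4% of the 150-base stretches of its transcript. Hspa4 and Hspa4l, large HSP70 relatives that act as exchange factors, stood at 0.055 (SE 0.20) and -0.058 (SE 0.23) in log2 fold change, with ranges over the 6 libraries of 374 to 462 CPM and 155 to 239 CPM. Dnaja1, a general DNAJ partner, ranged from 84.0 to 150.4 CPM and had a log2 fold change of 0.12 (SE 0.27), and exons of 3 other genes, most of all Smu1 on the opposite strand, cover 10.8% of its own.

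HSP90 genes varied little, and Hsp90ab1 had the smallest SD over the libraries in the heat shock set. Hsp90ab1, the constitutive HSP90, was at 3599, 3411 and 3035 CPM in the 3 controls and at 3351, 3528 and 3344 CPM in the shDdr2-labelled libraries, a 1.19-fold range and a log2 fold change of 0.025 (SE 0.23). Its 95% interval ran from -0.52 to 0.57. Per kilobase of merged exon it was the most abundant member, at 1126 CPM per kb (mean level over 6 libraries), followed by Pdia3 (306), Hspb1 (262) and Hspa8 (231). The inducible Hsp90aa1 stood at 83.5 CPM per kb and had a log2 fold change of 0.12 (SE 0.20). Other annotated genes share 36.2% of the 150-base stretches of its transcript. The lowest levels per kb were those of Hspa1a (9.69), Dnaja1 (12.7) and Cryab (15.2), where merging the exons of all transcripts makes long-tailed genes such as Dnaja1 look lower.

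**Figure D2:**
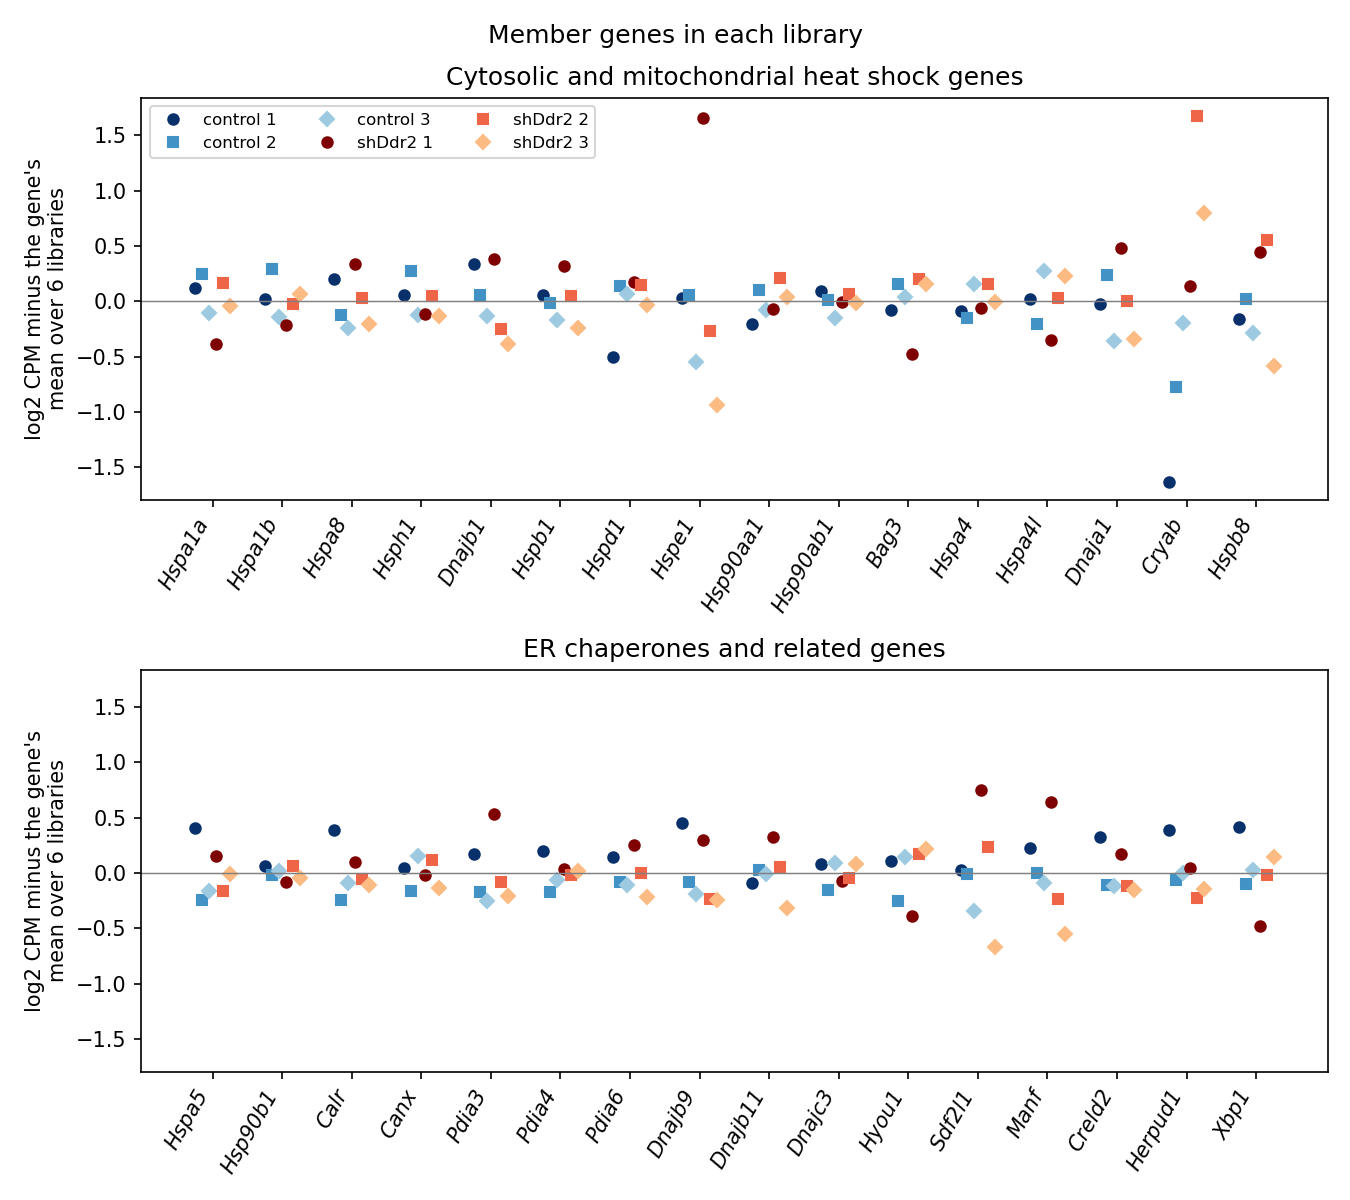
Level of each member in each library (y axis, log2 CPM minus the gene's mean over the 6 libraries), heat shock genes above and ER genes below, blue for control and red for shDdr2-labelled libraries. Cryab alone separates by group, Hspe1 is high in shDdr2 1, and most ER genes are high in control 1.

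The mitochondrial pair Hspd1 (HSP60) and Hspe1 (HSP10) together forms the folding cage of the mitochondrial matrix. Their ratio varied over the libraries, and in 1 library Hspe1 exceeded Hspd1. These genes lie head to head on chromosome 1 and overlap by 112 bases on opposite strands. Of the 150-base stretches of their transcripts, 18.6% (Hspd1) and 14.1% (Hspe1) also occur in another annotated gene. The placing of some reads, and so their ratio, is uncertain to that degree. Hspe1 was at 240.1, 245 and 161 CPM in the 3 controls and at 745, 196 and 123 CPM in the shDdr2-labelled libraries. Hspd1 was at 346, 537 and 513 CPM in the 3 controls and at 550.2, 543 and 479 CPM in the shDdr2-labelled libraries. The ratio of Hspe1 to Hspd1 (CPM) was 0.695, 0.456 and 0.314 in the 3 controls and 1.35, 0.361 and 0.258 in the shDdr2-labelled libraries, so the library labelled shDdr2 1 was the only one of the 6 with more Hspe1 than Hspd1. The log2 fold change of Hspe1 was 0.72 (SE 0.63), but -0.43 without that library, 0.29 with the replicate block and 0.33 with limma on voom weights. That of Hspd1 was 0.17 (SE 0.24).

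Short transcripts as a class were high in that library, and short members were among them. Over 13464 genes with a gene model, log2 exon length and the deviation of the library labelled shDdr2 1 from the gene's mean had Pearson's r = -0.40 (a description across genes of 1 library, which share its depth), and over the 32 members r = -0.42. Genes under 1500 bases had a median deviation of 0.69 (945 genes) and those of 6000 bases or more of -0.38 (4209 genes). For members the medians were 0.31 (5 genes) and -0.23 (4 genes). The 11 members with their highest value there had a median length of 3204 bases and ran from Hspb1 (1031 bases) to Dnaja1 (8629 bases). The 7 with their lowest had a median of 3248 bases and ran from Bag3 (2562 bases) to Hspa4l (11792 bases), so the length ranges overlapped. The 5 members under 1500 bases were all above their mean in that library. Of the 4 members of 6000 bases or more, only Dnaja1 was. In control 3 and the libraries labelled shDdr2 2 and 3 the relation over all genes had the opposite sign, with r = 0.26, 0.23 and 0.31. The part of length in the members' values was not tested.

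**Figure D3:**
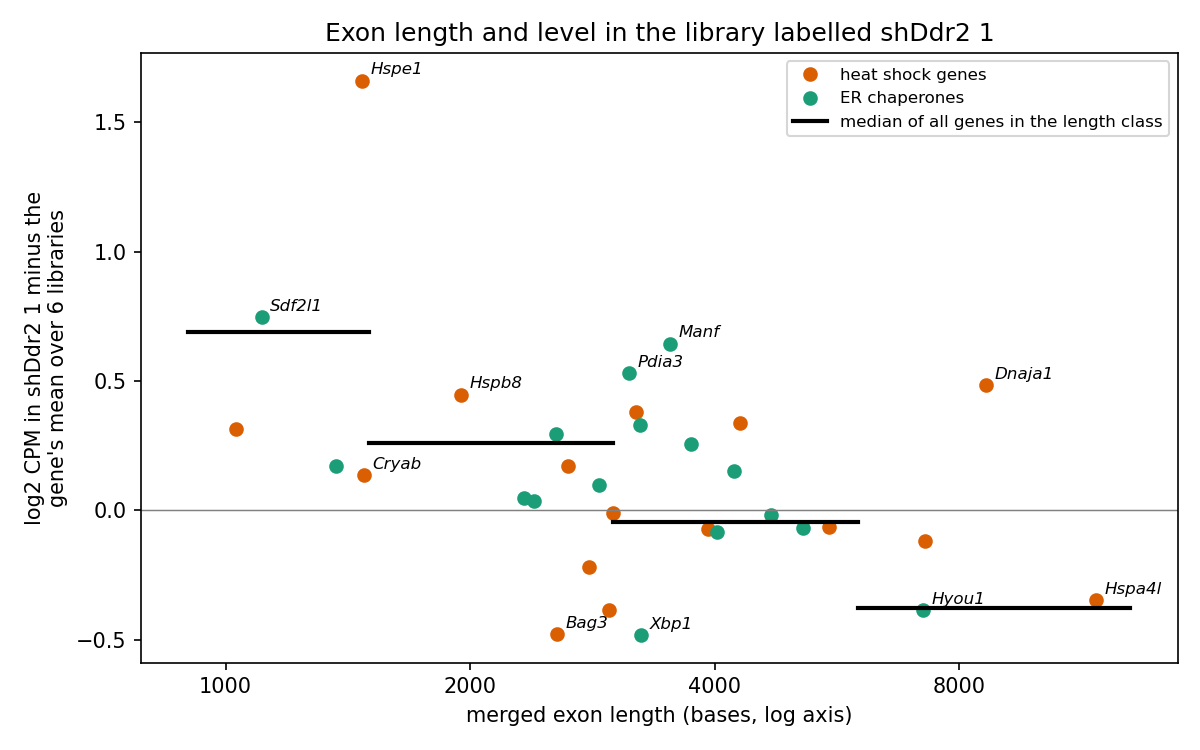
Deviation of each member in the library labelled shDdr2 1 from its mean over 6 libraries (y axis, log2 CPM) against merged exon length (x axis, bases, log axis), with the median of all genes in 4 length classes as black lines. Short members lie mostly above 0, as the short classes do (0.69 under 1500 bases), and long ones mostly below.

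Small heat shock genes held the largest difference between the groups. Cryab (chromosome 9, 50751325 to 50756636, plus strand), alpha B-crystallin, which is abundant in lens, heart and skeletal muscle and binds desmin, was at 5.501, 10.04 and 15.02 CPM in the 3 controls and at 19.0, 55.3 and 30.1 CPM in the shDdr2-labelled libraries. These came from 102, 168 and 239 counts in the 3 controls and 263, 1135 and 524 counts in the shDdr2-labelled libraries. All shDdr2-labelled libraries exceeded all controls, although control 3 and the library labelled shDdr2 1 were close. Group means were 10.2 ± 4.76 and 34.8 ± 18.6 CPM (SD, n = 3), and the log2 fold change was 1.77 (SE 0.50) with an unadjusted p of 0.00854 and an adjusted p of 1.00 by edgeR's quasi-likelihood test. DESeq2 gave an adjusted p of 0.137, and over the alternatives the adjusted p ran from 0.137 to 1.00 and the change from 1.27 to 2.16.

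Markers of skeletal muscle were high in the same libraries as Cryab. All 12 listed muscle genes had higher mean values in the libraries labelled shDdr2. In 10 of them the groups did not overlap, against 2.21% of all genes higher without overlap. The summed level of the 12 (CPM) was 10.5, 80.7 and 124 in the 3 controls and 1109, 3608 and 469.6 in the shDdr2-labelled libraries. Acta1, actin of skeletal muscle, was at 0.270 to 878 CPM over the libraries and Myh4, a fast myosin, at 0.0539 to 763 CPM. No gene of the table is listed below 1 count in any library. Cryab and the muscle sum both were lowest in control 1 and highest in the library labelled shDdr2 2, but between the libraries labelled shDdr2 1 and 3 the order was opposite. Further small heat shock genes known from muscle had the same direction: Hspb7 was at 0.270, 0.597 and 3.65 against 6.35, 44.4 and 15.2 CPM , Hspb2 at 0.431, 0.717 and 0.566 against 3.32, 2.73 and 0.746 CPM and Hspb6 at 6.04, 9.86 and 9.87 against 12.1, 41.4 and 14.4 CPM, all without overlap. Their log2 fold changes were 3.88 (SE 1.08), 1.97 (SE 0.62) and 1.40 (SE 0.51). For Hspb2 the groups were barely apart, with 0.717 CPM in control 2 and 0.746 CPM in the library labelled shDdr2 3, both low levels. No small heat shock or muscle gene passed edgeR's adjusted test, while DESeq2 called Hspb7 higher (adjusted p = 0.0142). It also called 4 of 11 muscle markers higher (Atp2a1, Ckm, Mylpf and Tnni2), against 0.223% of all genes called higher by DESeq2. Hspb6 was named after its values had been seen. Hspb7 ran from 2.85 to 5.65 when 1 library was left out. Hspb2 is the head-to-head neighbour of Cryab on the opposite strand, and exons of Hspb2 cover 17.0% of the exonic bases of Cryab, so without a known strand setting some reads of these genes cannot be told apart. The part of muscle RNA in the level of Cryab was not tested.

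Hspb8 and Hspb1, small heat shock genes expressed in many cell types, differed less. Hspb8, the partner of BAG3, was at 71.0, 80.4 and 64.7 CPM in the 3 controls and at 108, 116 and 52.9 CPM in the shDdr2-labelled libraries, with a log2 fold change of 0.36 (SE 0.31). It was high in the libraries labelled shDdr2 1 and 2 and lowest in that labelled shDdr2 3. Hspb1 (HSP25) was at 227 to 333 CPM over the 6 libraries, with 0.097 (SE 0.22). A near-copy annotated as a pseudogene shares 36.6% of its 150-base stretches.

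**Figure D4:**
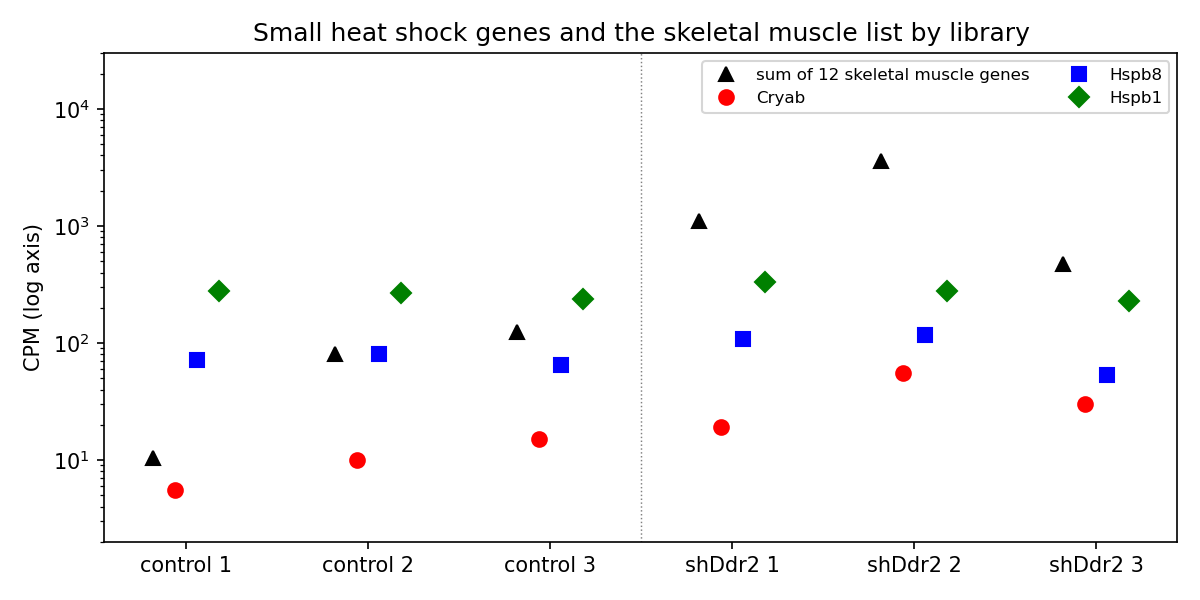
Level (y axis, CPM, log axis) of Cryab, Hspb8 and Hspb1 and the summed level of 12 skeletal muscle genes in each library (x axis). Cryab lies at 5.501 CPM in control 1 and at 55.3 CPM in the library labelled shDdr2 2, where the muscle sum is also highest (3608 CPM), while Hspb1 stays between 227 and 333 CPM.

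The central ER chaperones differed little between the groups, and no single library was highest for all of them. Hspa5 (BiP), the ER HSP70 that also holds the stress sensors inactive, was at 1207, 769 and 814 CPM in the 3 controls and at 1010.1, 814 and 904 CPM in the shDdr2-labelled libraries. Control 1 was the highest library and control 2 the lowest, so the controls bracketed all 3 other libraries. The log2 fold change was -0.033 (SE 0.26), with a 95% interval of -0.65 to 0.58. Hsp90b1 (GRP94), the ER HSP90, was the steadiest member of all 32 by its SD over 6 libraries (0.061 log2 units), at 686 to 762 CPM and with a log2 fold change of -0.042 (SE 0.20). Exons of 3 other genes, most of all an annotated pseudogene on the opposite strand, cover 15.7% of its own. Hyou1, the ER exchange factor for HSP70, was lowest in the library labelled shDdr2 1, at 224, 175 and 229.9 against 159, 234 and 242 CPM in control against shDdr2-labelled libraries 1 to 3, a log2 fold change of 0.013 (SE 0.24).

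The lectin chaperones and disulfide isomerases, which fold glycoproteins together, gave small differences of both signs. Calr, calreticulin, was at 796, 511 and 569.9 CPM in the 3 controls and at 648, 582 and 564 CPM in the shDdr2-labelled libraries, with a log2 fold change of -0.064 (SE 0.25), and like Hspa5 it was highest in control 1. Canx, its membrane-bound relative calnexin, had -0.026 (SE 0.22) over a range of 674 to 840.1 CPM. Pdia3, the isomerase that works with both lectins, was at 1061, 837 and 792 CPM in the 3 controls and at 1360.4, 892 and 813 CPM in the shDdr2-labelled libraries, highest in the library labelled shDdr2 1, with 0.19 (SE 0.28). Pdia4 and Pdia6, 2 further isomerases, stood at 0.019 (SE 0.19) and 0.037 (SE 0.22) in log2 fold change. None of these 5 genes had groups without overlap.

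The ER DNAJ proteins and the small secreted or soluble partners varied more by library than by group. Dnajb9, which brings clients to BiP and represses IRE1, had -0.13 (SE 0.26) and was highest in control 1 (47.8 to 77.6 CPM over the 6). Dnajb11 and Dnajc3, 2 further DNAJ partners of BiP, had 0.068 (SE 0.22) and -0.019 (SE 0.18). Sdf2l1, which binds DNAJB11, was at 27.1, 26.5 and 20.9 against 44.6, 31.3 and 16.7 CPM with a log2 fold change of 0.31 (SE 0.36), and Manf, a secreted protein that stabilises BiP complexes, was at 185, 159 and 148 against 247, 134 and 108 CPM with -0.0057 (SE 0.32). Both were highest in the library labelled shDdr2 1 and lowest in that labelled shDdr2 3, so the shDdr2-labelled libraries spanned the controls. Creld2, a secreted ER stress protein, had -0.073 (SE 0.21).

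The 2 members of the ER stress response that are no chaperones had the lowest fold changes of the set. Xbp1, the factor spliced by IRE1, was at 286, 200.4 and 218 CPM in the 3 controls and at 153, 211 and 237 CPM in the shDdr2-labelled libraries, with a log2 fold change of -0.23 (SE 0.25). Herpud1, a component of ER-associated degradation, was at 220.4, 161 and 168 CPM in the 3 controls and at 174, 143 and 152 CPM in the shDdr2-labelled libraries, with a log2 fold change of -0.23 (SE 0.21). Their 95% intervals ran from -0.81 to 0.35 and from -0.71 to 0.26, and in both genes control 1 was the highest library. These are levels of all Xbp1 transcripts, since counts per gene do not separate the spliced form.

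The sets were then compared as wholes, by the mean over members of each library's deviation from the gene's mean (log2 CPM). For the 16 heat shock genes it was -0.11, 0.020 and -0.12 in the 3 controls and 0.14, 0.17 and -0.10 in the shDdr2-labelled libraries. For the 16 ER genes it was 0.21, -0.11 and -0.061 in the 3 controls and 0.14, -0.033 and -0.15 in the shDdr2-labelled libraries. The groups overlapped in both sets. The heat shock list differed by 0.14 between the groups (list mean 7.77 ± 0.0791 in control and 7.91 ± 0.150 log2 CPM in shDdr2-labelled libraries, SD, n = 3), by 0.013 without Cryab, Hspb1 and Hspb8, by 0.090 without the library labelled shDdr2 2 and by 0.23 without that labelled shDdr2 3. The ER list differed by -0.024 (7.84 ± 0.174 and 7.82 ± 0.145 log2 CPM), and by 0.089 without control 1, by 0.042 without the library labelled shDdr2 3 and by -0.10 without that labelled shDdr2 1. The ER list minus the heat shock list differed by -0.17 between the groups, by -0.037 without the 3 small heat shock genes and by -0.048 without control 1. Between libraries of the same number (shDdr2-labelled minus control 1, 2 and 3) the heat shock mean differed by 0.25, 0.15 and 0.023, and the ER mean by -0.068, 0.081 and -0.085. The ER minus heat shock difference was -0.32, -0.074 and -0.11, of 1 sign in all 3 pairs, and without the 3 small heat shock genes it was -0.17, 0.12 and -0.065, of both signs. Since members are not replicates and were proposed with results known, no test was made of these means.

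**Figure D5:**
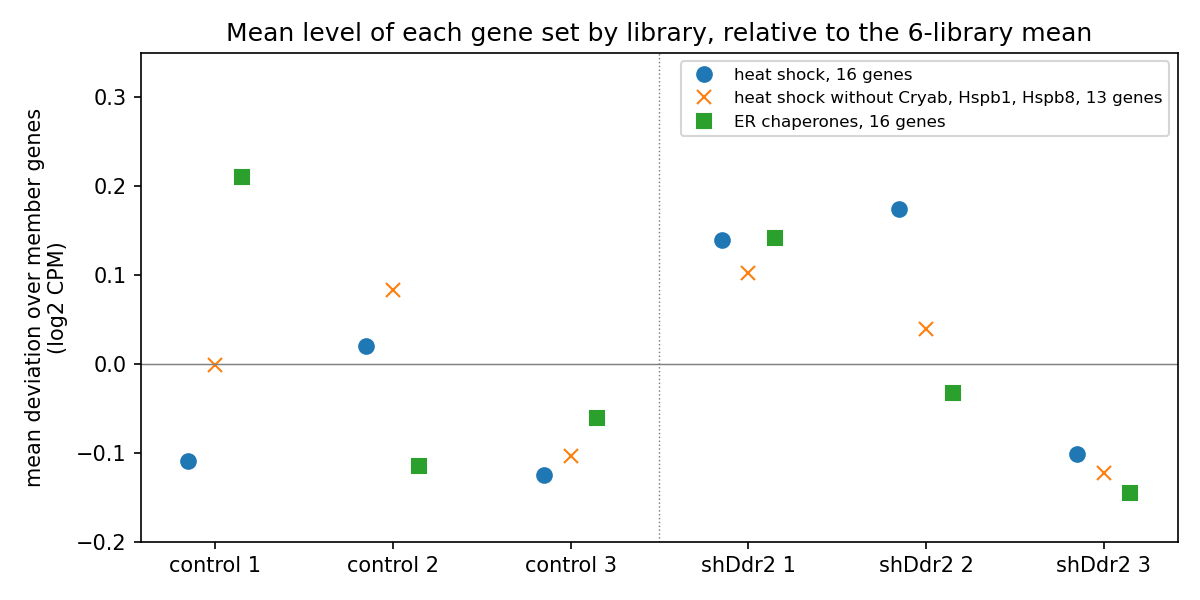
Mean deviation from the 6-library mean (y axis, log2 CPM) of 16 heat shock genes, of 13 of them without Cryab, Hspb1 and Hspb8, and of 16 ER genes, in each library (x axis). The ER set is highest in control 1 (0.21), and without the 3 small heat shock genes the heat shock set lies between -0.12 and 0.10 in all 6 libraries.

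Which libraries were high differed between the sets. In control 1, 15 of 16 ER genes but 9 of 16 heat shock genes lay above their mean over libraries, and 7 ER genes were at their highest. In control 2, 2 ER genes and 11 heat shock genes lay above their mean. In the library labelled shDdr2 2 these counts were 6 and 13. The sets took similar shares of the libraries throughout, with 0.722% to 0.848% of counts in heat shock genes and 0.535% to 0.653% in ER genes. The SD of log2 CPM over the 6 libraries had a median of 0.24 in heat shock genes, 0.22 in ER genes and 0.38 in all 14498 genes. The latter include many genes of lower level, where counting error is larger, and its part in these medians was not tested.

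Marker lists other than the epithelial one spanned a wider range over the libraries than the ER set. Whether the keratinocyte markers came from host or tumour cells cannot be told from whole tumours. Plasma cells are rich in ER. Of 8 listed markers of B and plasma cells together, 5 were tested, so their sum is not of plasma cells alone. This sum (CPM) was 2.103, 23.9 and 76.6 in the 3 controls and 18.8, 135 and 38.2 in the shDdr2-labelled libraries. It was lowest in control 1, where the ER genes were highest. Igkc, an antibody light chain, was at 0.431 to 105 CPM and Jchain at 0.0539 to 24.8 CPM. The summed level of 8 fibroblast markers was 2333, 4092 and 4998 in the 3 controls and 1202, 3566 and 9892 in the shDdr2-labelled libraries, and of 8 keratinocyte markers 686, 578 and 375 in the 3 controls and 2384, 607 and 535 in the shDdr2-labelled libraries. Macrophage markers (7 genes) were at 266, 543 and 433 in the 3 controls and 221, 467 and 506 in the shDdr2-labelled libraries. Fibroblast and macrophage sums were thus lowest, and the keratinocyte sum highest, in the library labelled shDdr2 1. Single macrophage markers differed: Adgre1, Csf1r and Cd14 were lowest there, but C1qa, C1qb, Cd68 and Mrc1 were lowest in control 1. Ranges over the libraries were 563 to 3269 CPM for Col3a1 and 235 to 3583 CPM for Col1a1 (collagens), 63.5 to 157 CPM for C1qa and 24.6 to 126 CPM for Mrc1 (macrophages), and 177 to 1401 CPM for Krt10 and 74.9 to 470.1 CPM for Sbsn (keratinocytes). The part of these cells in the members' levels was not tested.

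Other genes of the chaperone system, from lists chosen by function, gave 0 calls by edgeR in any direction, and DESeq2 called Hspb7 alone, higher. The 16 co-chaperones and HSF1 regulators had a median log2 fold change of 0.082, with 13 above 0, and the 2 with the smallest p were Cacybp, at 195, 183 and 138 against 424, 159 and 124 CPM, and Ahsa1, an activator of HSP90, at 168, 152 and 119 against 227, 157 and 124 CPM. All 8 subunits of the cytosolic chaperonin TRiC were above 0, with a median of 0.16, and Cct3 was at 363, 325 and 297 against 608, 329 and 314 CPM and Cct5 at 586, 483 and 448 against 892, 429.6 and 440.4 CPM. Cacybp, Ahsa1, Cct3 and Cct5 were all highest in the library labelled shDdr2 1, and their fold changes turned negative without it. The list means there were 0.59 above the 6-library mean for TRiC, 0.37 for co-chaperones and 0.42 for 13 other mitochondrial chaperones and proteases. Of the latter, 7 were above 0 (median 0.055). Afg3l2, a protease of the inner membrane, was lower without overlap, at 112, 109 and 128 against 103, 93.0 and 97.8 CPM. Over all genes, 2.11% were lower without overlap. Htra2 was at 42.7, 46.7 and 41.7 against 73.1, 49.3 and 34.7 CPM. Of 17 other HSP70, DNAJ and small heat shock genes tested (Hspa12a is not in the table), 13 were above 0 and 3 had an unadjusted edgeR p under 0.05, all higher, against 0.993% of all genes. These were Hspb7, Hspb2 and Hspb6, whose values stand with Cryab above.

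On the ER side, the sensors and factors of the unfolded protein response had 8 of 10 members below 0, with a median of -0.068. Ppp1r15a (GADD34), which restarts translation after stress, was at 51.3, 52.5 and 54.4 CPM in the 3 controls and at 38.4, 32.6 and 45.0 CPM in the shDdr2-labelled libraries, with a log2 fold change of -0.45 (SE 0.20) with an unadjusted p of 0.057. Ddit3 (CHOP), a stress factor downstream of PERK, was at 21.0, 22.6 and 20.9 CPM in the 3 controls and at 16.5, 15.2 and 17.7 CPM in the shDdr2-labelled libraries, with a log2 fold change of -0.38 (SE 0.20) with an unadjusted p of 0.098. In both genes every shDdr2-labelled library lay below every control, against 2.11% of all genes lower without overlap, and neither passed edgeR's adjusted test. In the same list Atf6b, a relative of ATF6, was higher without overlap, at 80.8, 68.8 and 78.0 against 92.1, 88.3 and 87.1 CPM, against 2.21% of all genes higher without overlap. It was named after its values had been seen. Of 14 genes of ER-associated degradation tested, 7 were above 0 (median 0.014). Erlec1 was at 50.8, 43.1 and 46.7 against 45.4, 39.9 and 37.3 CPM, and Syvn1, the ubiquitin ligase of this pathway, at 68.3, 63.0 and 58.6 against 27.7, 57.0 and 71.3 CPM, lowest in the library labelled shDdr2 1. Of 22 other folding enzymes and translocon genes, 16 were above 0 (median 0.038), and Ero1a, the oxidase that recharges disulfide isomerases, was at 629.7, 265 and 488 against 260.3, 219 and 396 CPM, with a log2 fold change of -0.66 (SE 0.38) against -0.36 without control 1. Ero1a was highest in control 1, where Hspa5 and Calr were highest too. Fkbp7 was at 9.44, 12.5 and 11.9 against 16.5, 11.1 and 16.4 CPM. In this list 1 gene, Sil1, was lower without overlap, against 2.11% of all genes. Its levels were 25.8, 21.6 and 21.2 against 19.9, 20.0 and 17.0 CPM, and it was named after its values had been seen.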

How the data were processed

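Bulk RNA of 6 tumours was sequenced as paired-end reads of 150 bp after poly-T selection, per the labels' protocols. RSEM 1.2.31, Bowtie2 2.1.0, limma and the build GRCm38.p5 appear, without roles, in the submitters' processing notes. The authors deposited whole-number counts per Entrez gene, with no count under 1, and log2 values. Each deposited log2 value equals log2(count/factor + 1), with 1 factor for each library. The gene filter, strand setting and treatment of shared reads are not stated in the labels or headers. Symbols were matched by Entrez number to RefSeq (14876 of 15295), and gene positions come from GENCODE M21 (GRCm38).

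Counts were filtered with filterByExpr (14498 genes), scaled by TMM and tested with edgeR 4.0.16 (robust quasi-likelihood, R 4.3.3), two-sided, with Benjamini-Hochberg adjustment over all genes and a threshold of 0.05. The SE is the fold change divided by the square root of F. CPM uses TMM-scaled totals, and log2 CPM a prior count of 2. For the median member, the 95% interval spanned 0.55 log2 units on each side of the fold change. DESeq2 1.42.0 and limma 3.58.1 were alternatives. A planned search of the members' protein sequences was not run. The test was tried on simulated data. Members and lists were chosen with earlier results of these data known. Named besides the members are Ddr2, the 2 genes with the smallest p of each other pathway list and the 2 most abundant of each marker list. Other names (such as Upk1b, Upk2 and Gata3) were chosen after their values were seen. Deviations from group means correlated between same-numbered libraries (titles) with r of 0.299, 0.267 and 0.253, above the 0.1 set for treating numbers as pairs. Control 3 also correlated with the library labelled shDdr2 2 (0.254). The p-values, SE and intervals in Results nevertheless come from the fit without pairs, and the replicate block was run as an alternative. For Cryab, edgeR's quasi-likelihood test gave an unadjusted p of 0.00216 with the block and 0.00854 without it. Within groups no libraries agreed within counting noise (chi-square per degree of freedom 24.8 to 229).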

Additional observations from a re-analysis of the deposited data

How the results depend on the processing

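No alternative called any of the 32 members: there were 0 calls with RLE, upper quartile or total scaling, other filters, DESeq2, limma, the replicate block, or any library left out, with a lowest adjusted p of 0.137 (Cryab, DESeq2). The replicate block gave 0 calls, list differences of 0.14 (heat shock), -0.024 (ER) and -0.17 (ER minus heat shock), and 262 of all genes at an unadjusted p under 0.05 against 209. Of the other named genes, Hspb7 was called by DESeq2 (3.87, adjusted p = 0.0142). Without Cryab, Hspb1 and Hspb8 the heat shock difference was 0.013 in place of 0.14. Of 512 alternative values of member fold changes, 57 changed sign. Manf was at 0.012 with RLE scaling and 0.0086 with DESeq2, Hyou1 at -0.0051 with voom and -0.0047 on deposited log2 values, and Hsp90ab1, Pdia4 and Pdia6 at -0.0039, -0.011 and -0.0083 with library totals only. With 1 library, or control 1 and the library labelled shDdr2 1 together, left out, members whose sign changed ranged as follows (log2): Hspa1b -0.22 to 0.0032, Hspa8 -0.040 to 0.27, Dnajb1 -0.42 to 0.0065, Hspb1 -0.049 to 0.23, Hspd1 -0.050 to 0.29, Hspe1 -0.43 to 1.13, Hsp90ab1 -0.042 to 0.094, Bag3 -0.17 to 0.14, Hspa4 -0.012 to 0.15, Hspa4l -0.20 to 0.083, Dnaja1 -0.14 to 0.29, Hspa5 -0.15 to 0.21, Calr -0.19 to 0.16, Canx -0.11 to 0.047, Pdia3 -0.072 to 0.34, Pdia4 -0.060 to 0.14, Pdia6 -0.092 to 0.14, Dnajb9 -0.33 to 0.11, Dnajb11 -0.14 to 0.22, Dnajc3 -0.098 to 0.038, Hyou1 -0.10 to 0.22, Sdf2l1 -0.045 to 0.61, Manf -0.43 to 0.22, Creld2 -0.18 to 0.11, Xbp1 -0.37 to 0.091. For the other named genes these ranges were Ddr2 -0.28 to 0.71, Cacybp -0.28 to 0.76, Ahsa1 -0.055 to 0.39, Cct3 -0.031 to 0.51, Cct5 -0.22 to 0.40, Htra2 -0.084 to 0.48, Syvn1 -0.58 to 0.068. The cause of these sign changes was not tested. Each group held 3 libraries, and the part of counting error in the members' values was not estimated.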
